A study of Mus musculus with 3 samples.

Results

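The stretch of mouse chromosome 6 that holds Gdf3, Dppa3, Nanog and Slc2a3, in this order, was examined in 3 Capture Hi-C (CHi-C) libraries of embryonic stem cells. Its members were all di-tags, with duplicates removed, that had at least 1 end in chr6:122550000-122719999 of the mm9 build, a window of 170 kb or 17 regions of 10 kb, of 242198 regions of the genome covered in at least 1 library. They numbered 1519 of 9376907 di-tags in Sample 3, 1016 of 8596799 in Sample 4 and 1001 of 8821161 in Sample 5. All 3 libraries were labelled as C57BL/6 embryonic stem cells with no other treatment, so they formed 1 group with no control, and the labels did not say whether they came from separate cultures. The source label of Sample 3 alone read foetal liver, while its cell type label and the study's text both named stem cells. Values are therefore given for each library, and some of the means also without Sample 3.

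Hi-C joins DNA ends that lie close together in the fixed nucleus. Chromatin is cut with HindIII, the ends are ligated, and each ligation product is sequenced from both sides as a di-tag. CHi-C then enriches the library for di-tags with at least 1 read in chosen fragments, so the coverage of a fragment depends strongly on whether it was chosen. The list of chosen fragments was not used here, and a strongly covered fragment is described below by its counts alone.

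Gdf3, Dppa3 and Nanog are known for their activity in pluripotent and germline cells. Nanog encodes a homeodomain transcription factor that holds embryonic stem cells in the undifferentiated state. Dppa3 encodes a maternal factor that protects DNA methylation in the early embryo and marks germ cells. Gdf3 encodes a secreted ligand of the transforming growth factor beta family, and Slc2a3 encodes a glucose transporter. In the RefSeq gene order the protein-coding neighbours are Apobec1 before Gdf3 and Foxj2 after Slc2a3. Hi-C measures contacts and not transcription, so nothing below is a level of these genes. No gene annotation of mm9 was at hand, so no region or fragment below is assigned to a single gene.

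HindIII cuts at AAGCTT, and the resolution of these contacts is set by where that word falls. Of the 4 genes, RefSeq promoter sequence was held for Nanog only. Its 250 bases before the annotated start (GRCm38.p6, chr6:122707239-122707488, plus strand, a build whose coordinates are not those of the mm9 contacts) are shown because they hold 1 such site, in capitals, whose first base lies 117 bases before the start.
Nanog promoter: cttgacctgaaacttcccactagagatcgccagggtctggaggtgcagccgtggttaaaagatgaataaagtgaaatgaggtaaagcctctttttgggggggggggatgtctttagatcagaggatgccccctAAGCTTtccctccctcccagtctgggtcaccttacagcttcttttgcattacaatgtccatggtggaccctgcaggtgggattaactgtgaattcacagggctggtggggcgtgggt
The word AAGCTT, which reads the same on both strands, was present in 2043 of 32851 RefSeq promoter stretches of this length, or 6.22%. Where this site is cut, the annotated start and most of the sequence shown before it fall on different restriction fragments.

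The window held 0.0162% of the di-tags of Sample 3 (95% exact binomial interval 0.0154 to 0.0170), 0.0118% of Sample 4 (0.0111 to 0.0126) and 0.0113% of Sample 5 (0.0107 to 0.0121). The interval of Sample 3 lay above those of the other libraries, whereas the intervals of Samples 4 and 5 overlapped. The mean share was 0.0131% ± 0.00268 (SD, n = 3), and 0.0116% without Sample 3. Such intervals cover counting error only, since reads without molecular identifiers need not be independent molecules.

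The difference between Sample 3 and the other libraries lay in a few places of the window. The region at 122650000 (chr6:122650000-122659999) held 577 di-tag ends in Sample 3, compared with 230 and 225 in Samples 4 and 5. It was the only region of the 17 that belonged to the 10% most covered of the genome in every library, a threshold of 171.1, 146 and 147 ends, and it is called the high-coverage region below. The region at 122570000 held 231, 125 and 120 ends in Samples 3, 4 and 5. The region at 122550000 held 117, 110 and 91 ends, and the region at 122670000 held 79, 79 and 116. The first 2 of these 4 regions were therefore higher in Sample 3, and the last was highest in Sample 5. At the other extreme, the region at 122640000 held 4, 1 and 0 ends. A count of 0 allows up to about 3 ends, as a one-sided 95% limit. The median over the 17 regions was 49, 46 and 48 ends in Samples 3, 4 and 5, so the typical region of the window was covered alike in the 3 libraries.

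**Figure D1:**
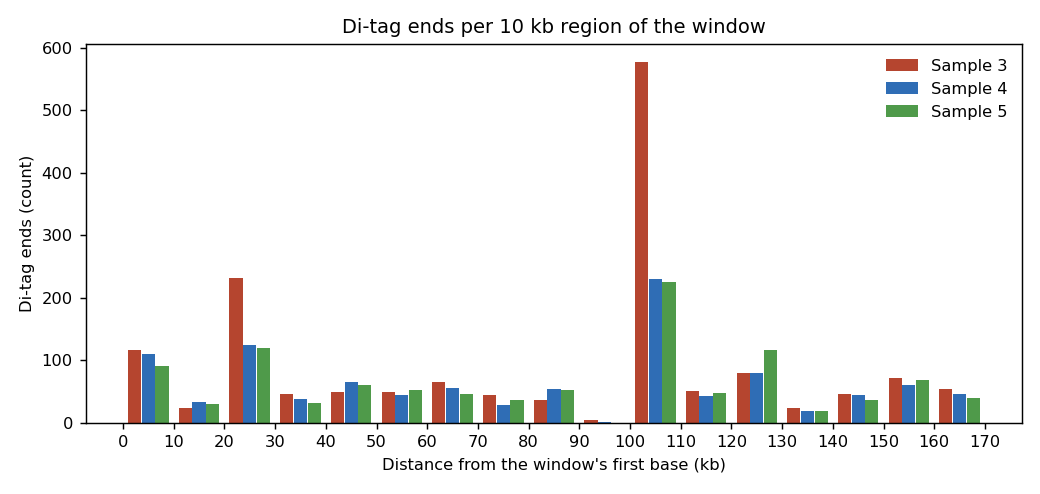
Di-tag ends (count, y axis) in each of the 17 regions of 10 kb against distance from the first base of the window (kb, x axis), with 1 bar for each library. The tallest bars belong to the region that starts 100 kb into the window, at 577, 230 and 225 ends for Samples 3, 4 and 5, while most other regions differ little between libraries.

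Regions elsewhere were used to describe how unusual the excess in Sample 3 was. Of 2412 regions outside the window whose coverage in both Samples 4 and 5 was within 10% of that of the high-coverage region, the median held 258 ends in Sample 3, and 20 held 577 or more. For the region at 122570000 there were 5088 such regions with a median of 128 ends in Sample 3, and 207 of them reached 231 or more. For the region at 122550000, 1339 of 3689 such regions reached its 117 ends, with a median of 105. The high-coverage region thus lay near the upper end of comparable regions in Sample 3, and the region at 122550000 near their middle. For the window as a whole, 255 of 4088 windows of 170 kb alike in Samples 4 and 5 reached its 1567 ends in Sample 3, and their median was 1089.5. No test was drawn from these comparisons.

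The strands of the reads gave a finer map. After a HindIII digest, plus-strand reads lie before a cut site and minus-strand reads after it, so the change of strand along the sequence located 35 cut sites in the window, from 3719 ends of the 3 libraries, of which 5 were on the other strand than their pile. The reads around a site left a median gap of 20 bases, within which the site lies. The gap was under 50 bases at 31 of the 35 sites and 614 bases at the widest, so fragment lengths are approximate. The 36 fragments between neighbouring sites ranged from 583 to 16322 bases with a median of 4111. Of the 70 fragment ends beside these sites, 4 held at least 5 times the median count in every library. That median was 11.5 ends in Sample 3 and 11 in both other libraries.

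Most of the excess in Sample 3 lay on these 4 strong fragment ends. The minus-strand reads after the site at 122552378 numbered 105, 99 and 77 in Samples 3, 4 and 5. Those after the site at 122575525 numbered 192, 86 and 92. The fragment from 122657377 to 122659178, which is 1801 bases long and lies in the high-coverage region, carried strong counts on both of its ends, with 213, 79 and 81 reads at its left end and 285, 99 and 99 at its right end. In Sample 3, both ends of this fragment and the end after 122575525 were thus 2.09 to 2.88 times those of either other library. The end after 122552378 in Sample 3 was 1.06 times that of Sample 4 and 1.36 times that of Sample 5. These are ratios of raw counts, and Sample 3 also had the most di-tags in its whole library. In all, the strong ends held 795, 363 and 349 reads, or 50.7%, 33.7% and 32.5% of the ends of the window. The other 66 fragment ends together held 772, 715 and 725 reads, within 1.08 times of each other, and no single one of them exceeded 27 reads in any library.

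**Figure D2:**
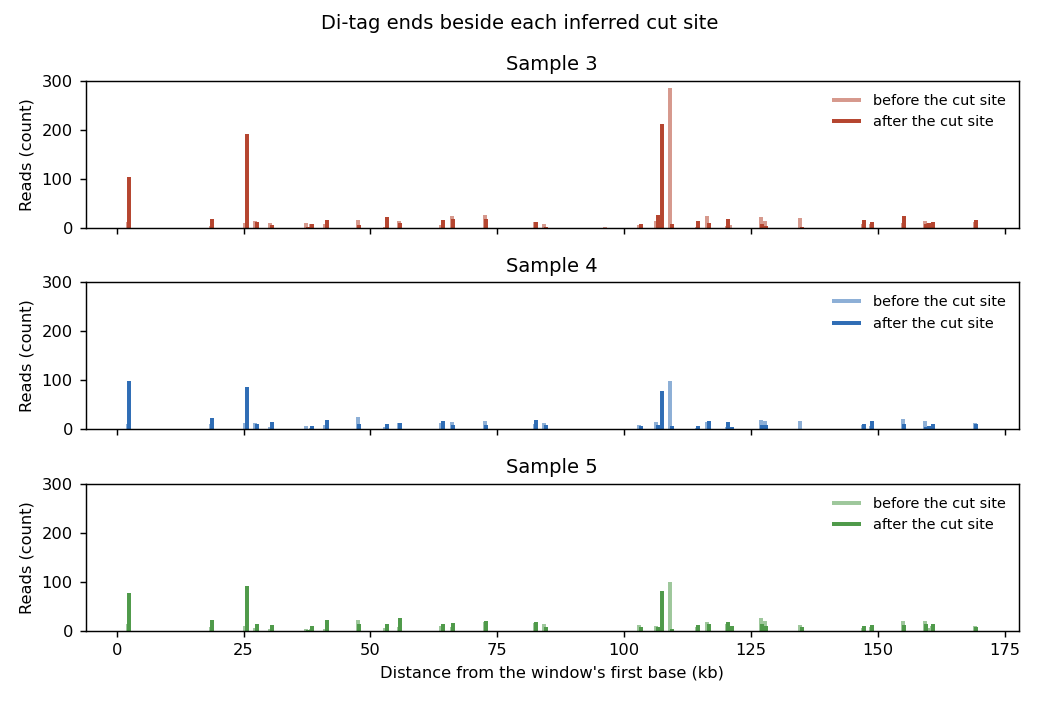
Reads (count, y axis) before and after each of the 35 inferred cut sites against distance from the first base of the window (kb, x axis), with 1 panel for each library. The 4 strong ends stand at 2.4, 25.5, 107 and 109 kb in every library, and those at 25.5, 107 and 109 kb are more than 2 times as high in Sample 3 as in Samples 4 and 5.

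Strong ends of different fragments were not seen joined to each other. The 5 combinations of strong ends on different fragments had 0 di-tags in each of the 3 libraries. As a one-sided 95% limit, a count of 0 allows up to about 3 di-tags for each in each library. Combinations on a single fragment say nothing, since HiCUP discards read pairs of the same fragment. Between 10 kb regions, the high-coverage region and the region at 122570000 shared 1 di-tag in Sample 3 and 0 in Samples 4 and 5, where 2.83, 0.747 and 0.591 were expected from coverage and distance. The high-coverage region and the region at 122550000 shared 0 di-tags in each library, where 1.25, 0.555 and 0.370 were expected. With expected counts this low, a reduced contact was not detectable at this depth.

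Contacts of the window were divided by where the other end lay. Both ends lay inside the window in 48, 62 and 73 di-tags of Samples 3, 4 and 5, or 3.16%, 6.10% and 7.29%, and in 13, 24 and 22 of these both ends were in the same 10 kb region. The other end lay on chromosome 6 outside the window and within 2 Mb in 191, 139 and 111 di-tags, or 12.6%, 13.7% and 11.1%. It lay on chromosome 6 at 2 Mb or more in 534, 152 and 117 di-tags, or 35.2%, 15.0% and 11.7%. It lay on another chromosome, in trans, in 746, 663 and 700 di-tags, or 49.1%, 65.3% and 69.9%. Long-range cis contacts were thus the class in which Sample 3 differed most from the others. Sample 3 differed in the same way over its whole library, where cis di-tags at 2 Mb or more made up 26.7% against 8.98% and 8.03% in Samples 4 and 5.

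Windows of equal coverage served as the background. In all, 693 windows of 170 kb that did not overlap each other held a number of di-tag ends within 10% of that of the Nanog window in each of the 3 libraries. Their median share of cis di-tags at 2 Mb or more was 28.8%, 9.77% and 8.74% in Samples 3, 4 and 5. The Nanog window exceeded it by 6.40, 5.19 and 2.95 percentage points (mean 4.84 ± 1.75, SD, n = 3), and the mean excess was 4.07 without Sample 3. The share was higher than that of the Nanog window in 90, 5 and 40 of the 693 windows. Among the 56 of them on chromosome 6, whose distances to the chromosome ends differ from those of the Nanog window, 7 were higher in Sample 3 and 0 in Samples 4 and 5, where the highest reached 13.7% and 11.5%. The Nanog window therefore had more contacts at 2 Mb or more than the typical window of its coverage in each library.

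Trans contacts were correspondingly fewer. The median window of equal coverage held 53.2%, 72.2% and 76.1% trans di-tags, and 491, 655 and 657 of the 693 windows were higher than the Nanog window, which differed from the median by -4.07, -6.97 and -6.14 percentage points. Contacts within the window and up to 2 Mb showed no common direction. The share inside the window differed from the median of 3.44%, 6.07% and 5.56% by -0.28, 0.036 and 1.73 percentage points. The share within 2 Mb differed from the median of 14.0%, 11.8% and 9.49% by -1.40, 1.93 and 1.60 points, so Sample 3 was below and the other two above.

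**Figure D3:**
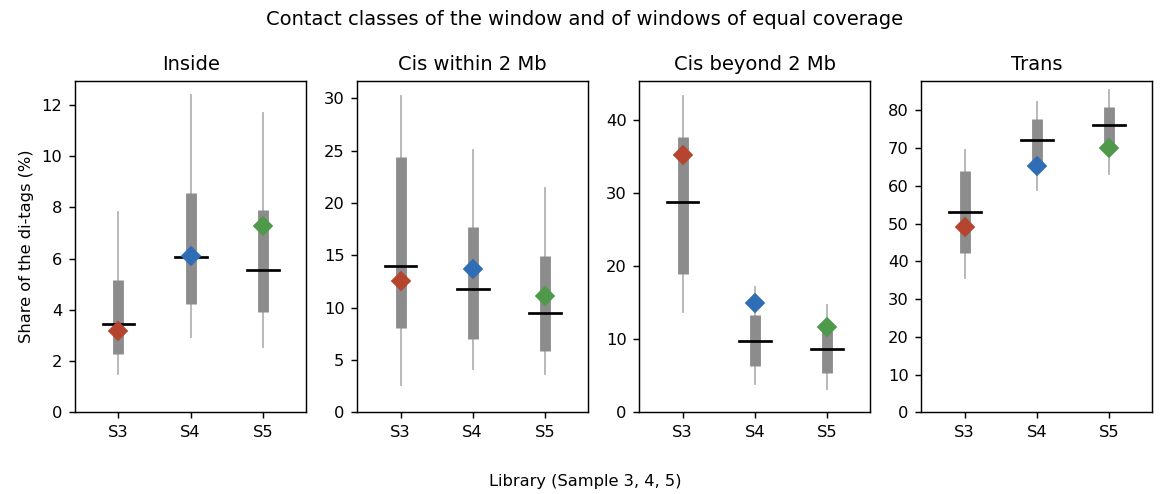
Share of the di-tags (%, y axis) in 4 contact classes for each library (x axis). Diamonds are the Nanog window, black lines the median, thick grey bars the central 90% and thin lines the range of 693 windows of equal coverage. The diamonds for cis beyond 2 Mb lie above the median in all 3 libraries and those for trans below it.

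The contacts at 2 Mb or more were spread over chromosome 6. Of them, 190, 57 and 43 spanned less than 10 Mb, or 35.6%, 37.5% and 36.8%, compared with 34.03%, 27.33% and 25.98% of such di-tags in the whole libraries. Distances from 10 to 30 Mb accounted for 48.9%, 27.6% and 27.4%, compared with 44.6%, 32.3% and 30.6%. Distances of 30 Mb or more accounted for 15.5%, 34.9% and 35.9%, compared with 21.4%, 40.4% and 43.4%. These library shares pool all chromosomes and positions. The largest listed position of chromosome 6 was 149516742, so partners of the window at 30 Mb or more can lie only upstream, and the 2 sets of shares are not like for like. The share from 10 to 30 Mb was thus highest in Sample 3 both in the window and over the whole library.

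Individual regions of the window contributed unequally to this class. In the high-coverage region, 159 of 577 ends (27.6%) in Sample 3, 26 of 230 (11.3%) in Sample 4 and 14 of 225 (6.22%) in Sample 5 had their partner on chromosome 6 at 2 Mb or more. In the region at 122550000 they were 65 of 117 (55.6%), 17 of 110 (15.5%) and 15 of 91 (16.5%). In the region at 122570000 they were 77 of 231 (33.3%), 26 of 125 (20.8%) and 12 of 120 (10.0%). The region with the most ends therefore had a lower share than the region at 122550000 in every library. Trans ends of the region at 122550000 numbered 30 in Sample 3 against 62 and 58, so that this region had more distant cis and fewer trans partners in Sample 3 than in either other library. This was not particular to it, since distant cis ends were most numerous in Sample 3 in every region of the window. Trans ends were fewest in Sample 3 in other regions too, such as that at 122630000, with 17 against 38 and 42. In the high-coverage region they were not, with 314 against 141 and 143.

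Within 2 Mb, each pair of 10 kb regions at least 20 kb apart was tested for more di-tags than expected from the coverage of both regions and their distance (one-sided Poisson test, adjusted over all such pairs of the genome). Of the pairs with at least 2 di-tags, 66 of 213685 (0.0309%), 151 of 158399 (0.0953%) and 208 of 123881 (0.168%) passed an adjusted p of 0.05 in Samples 3, 4 and 5. The window took part in 25, 15 and 14 such pairs, and 0 passed in each library. At an unadjusted p under 0.05 there were 10, 12 and 8 of these 25, 15 and 14, where 38.4%, 42.0% and 44.7% of all such pairs of the genome passed. Only pairs with at least 2 di-tags entered these counts. Since the background share is so small, a count of 0 is also what these few pairs would give at the rate of the genome. No pair met the rule for naming, a call in all 3 libraries. Had distance been ignored and pairs been tested on coverage alone, an alternative added after the data were seen, 10, 9 and 7 of the same 25, 15 and 14 pairs would have passed, where 37.8%, 52.2% and 49.1% passed genome-wide.

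The pairs with the smallest unadjusted p of the Poisson test differed between libraries. In Sample 3 it was the pair of the regions at 122670000 and 122780000, with 3 di-tags against 0.111 expected. In Sample 4 it was that of 122220000 and 122560000, with 2 against 0.0539, and in Sample 5 that of 122610000 and 122760000, with 3 against 0.193. Adjusted p was 1 for each. The first pair had 0 di-tags in both other libraries, as did the second, and the third had 0 in Sample 3 and 2 in Sample 4.

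Summed over all pairs of the window from 20 kb to 2 Mb, the di-tags were at or somewhat above the number expected. They numbered 215 against 216.7 expected in Sample 3, a ratio of 0.992 (95% Poisson interval 0.864 to 1.13), 155 against 135.9 in Sample 4 (1.14, 0.968 to 1.33) and 140 against 111.7 in Sample 5 (1.25, 1.05 to 1.48). Pairs with both regions in the window gave 26, 21 and 29 di-tags and ratios of 1.03, 1.09 and 1.76, of which only that of Sample 5 had an interval above 1 (1.18 to 2.53). Regions upstream of the window gave ratios of 0.959 (0.783 to 1.16), 0.855 (0.638 to 1.12) and 0.997 (0.730 to 1.33). Regions downstream gave 1.02 (0.819 to 1.26), 1.47 (1.17 to 1.82) and 1.32 (1.02 to 1.69), so that the interval lay above 1 in Samples 4 and 5 and included it in Sample 3. The downstream region at 122760000 alone held 4 of 86, 14 of 82 and 15 of 65 of these di-tags, against 7.18, 5.88 and 5.00 expected. The downstream ratios in Samples 4 and 5 therefore rest in part on this 1 region. Of the di-tags outside the window and within 2 Mb, 55.0%, 40.3% and 41.4% led upstream, with exact 95% intervals of 47.6 to 62.2, 32.1 to 48.9 and 32.2 to 51.2. The interval of the upstream share thus lay below an even split in Sample 4 alone. An even split was not what coverage and distance gave. For pairs at least 20 kb apart, the expected counts were 107.4, 60.8 and 46.1 upstream and 84.0, 55.8 and 49.1 downstream, so Sample 3 was expected to lean upstream.

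The high-coverage region gave the most di-tags from which to describe a profile. With all regions from 20 kb to 2 Mb it formed 80, 26 and 37 di-tags in Samples 3, 4 and 5, at ratios to the expected count of 1.00, 0.894 and 1.51. From 20 to 100 kb downstream it formed 18, 10 and 10, against 10.4, 5.32 and 5.32 expected. The ratios were 1.73, 1.88 and 1.88 (mean 1.83 ± 0.087, SD, n = 3), and the lower bound of the interval was 1.03 in Sample 3 and 0.902 in Samples 4 and 5. The region at 122670000 alone supplied 3 of the 18, 2 of the 10 and 8 of the 10 di-tags in Samples 3, 4 and 5. For it 2.58, 1.98 and 2.51 were expected, so in Sample 5 the block was mostly this 1 neighbour. From 20 to 100 kb upstream the ratios were 0.704, 0.401 and 1.74, and the 3 libraries did not share a direction. From 110 to 500 kb they were 0.962, 0.422 and 1.33 upstream and 0.744, 0.835 and 1.13 downstream. The block of 20 to 100 kb downstream was the only one of these 6 blocks, out to 2 Mb, with a ratio above 1.5 in every library, and it was noticed after the values were seen. In Sample 5 that ratio depended on the region at 122670000.

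Close to the high-coverage region, the neighbour at 122670000 shared 3, 2 and 8 di-tags with it, against 2.58, 1.98 and 2.51 expected, and the neighbour at 122630000 shared 2, 1 and 4 against 1.18, 1.36 and 1.15. The adjoining region at 122660000, too near for the test, shared 2, 5 and 9 di-tags, while the adjoining region at 122640000 on the other side, which had almost no coverage, shared 0 in each. Sample 5 had the highest count for all 3 neighbours that had any.

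Outside the window and within 2 Mb, 152 of 400 regions held a di-tag to it in at least 1 library, and 22 held one in all 3. The 8 regions with the most di-tags, giving the libraries equal weight, took 34.2% of these contacts. In falling order they start at 122760000, 122770000, 122820000, 122720000, 122500000, 122520000, 122450000 and 122730000, so that 5 lie downstream and 3 upstream. The leading region, at 122760000, held 4, 14 and 15 di-tags in Samples 3, 4 and 5, against 7.18, 5.88 and 5.00 expected. It was below the expected count in Sample 3 and above it in Samples 4 and 5, although its own coverage was nearly equal at 332, 314 and 319 ends. Its di-tags to the high-coverage region were only 1, 2 and 1, so most of them led to other regions of the window.

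The region at 122770000 held 10, 9 and 6 di-tags against 8.998, 5.72 and 4.77 expected, and that at 122820000 held 9, 6 and 6 against 5.68, 2.30 and 2.46. The region at 122720000, which adjoins the window, held 7, 7 and 3 against 3.92, 2.64 and 2.07 expected, a figure that leaves out pairs under 20 kb apart. The first 2 of these regions were above the expected count in every library. Upstream, the region at 122500000 held 4, 7 and 3 against 8.35, 5.20 and 3.47, and that at 122450000 held 3, 4 and 4 against 6.73, 5.49 and 4.04, so neither exceeded the expected count in more than 1 library. The upstream region at 122520000 went the other way, with 3, 3 and 5 against 2.98, 2.77 and 1.82, above the expected count in every library. The downstream region at 122730000 held 6, 4 and 2 against 5.96, 4.31 and 3.95 expected, below it in Samples 4 and 5. Named regions above and below the expected count thus lay on both sides of the window. All were picked for their high counts in these same libraries, which favours counts above the expected number. No test was drawn from them.

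**Figure D4:**
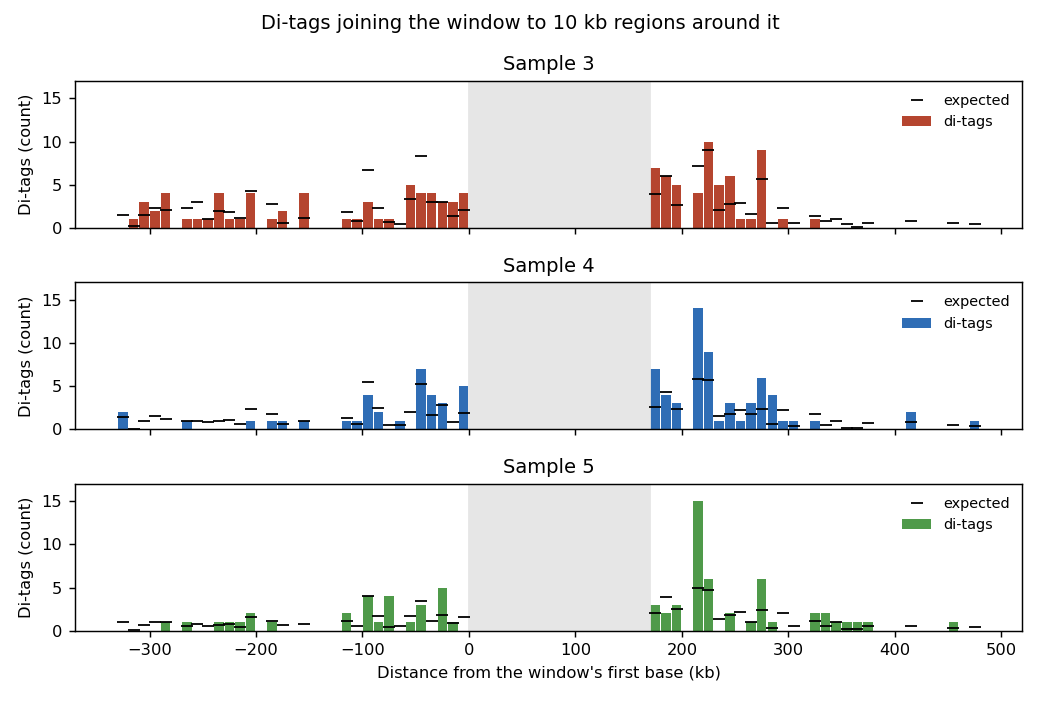
Di-tags (count, y axis) joining the window, shaded grey, to 10 kb regions around it against distance from the first base of the window (kb, x axis), with 1 panel for each library. Bars are observed and black marks expected counts, for regions with a di-tag in at least 1 library. The region that starts 210 kb from the window's first base reached 14 and 15 in Samples 4 and 5 and 4 in Sample 3.

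Trans contacts were almost all seen once. The 746, 663 and 700 trans di-tags fell into 746, 663 and 693 pairs of 10 kb regions, on each of the other 18 autosomes and X, with 16 to 57, 17 to 58 and 19 to 59 di-tags per autosome. Of 2101 such pairs over all libraries, 1 was seen in more than 1 library. It joined the region at 122670000 to chr1:66820000-66829999, with 1 di-tag in Sample 4 and 1 in Sample 5.

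Pairs in trans were tested on coverage alone (one-sided binomial test, adjusted over all pairs of covered regions). Genome-wide, 24.9%, 33.4% and 30.2% of the trans pairs with at least 2 di-tags passed. The window had 0 such pairs in Samples 3 and 4 and 7 in Sample 5, of which 4 passed, and none passed in 2 libraries, so the rule for naming fell to the pairs with the most di-tags, 8 pairs tied at 2. The 4 that passed joined the region at 122570000 to chr1:77200000-77209999 (adjusted p = 0.00461, binomial test), chr5:27980000-27989999 (0.0161) and chr13:70920000-70929999 (0.0323), and the region at 122620000 to chr1:173580000-173589999 (0.0142). Of these, 3 were made of a pair of nearly identical di-tags, equal at one end and 2 bases apart at the other. Only the pair with chromosome 5 was not, its di-tags being equal at the window end and 159 bases apart at the other. When di-tags with both ends within 5 bases of another were counted once, that pair alone passed in the window, and the share passing genome-wide lay between 12.6% and 21.2%.

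Partners in trans also differed with the region of the window they came from. Of the trans partners of the high-coverage region, 54 of 314 (17.2%), 18 of 141 (12.8%) and 15 of 143 (10.5%) lay in regions among the 10% most covered of every library. For the other 16 regions they were 148 of 432 (34.3%), 153 of 522 (29.3%) and 166 of 557 (29.8%). Over all trans ends of the libraries the share was 34.2%, 30.0% and 29.2%, so the other regions lay within 1 percentage point of their library and the high-coverage region below it in all 3. Highly covered regions elsewhere were not compared, so whether the lower share is particular to this region was not tested.

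The study compared lists with duplicates retained and removed, and the window was read in the same way. With duplicates retained it held 8505, 4217 and 4070 di-tags in Samples 3, 4 and 5, which is 5.60, 4.15 and 4.07 times the number without (mean 4.60 ± 0.862, SD, n = 3). The whole libraries had ratios of 7.24, 5.72 and 5.20, so the window held fewer copies per di-tag than its library in each. This difference was not tested. The sign-flip test foreseen for the ratio of retained to removed di-tags is void, since that ratio exceeds 1 by construction. Of the distinct di-tags of the window, 38.2%, 50.6% and 49.1% occurred once, and the most copied had 96, 44 and 55 copies.

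Copies differed between kinds of contact. The mean number of copies was 5.91, 4.78 and 4.23 for di-tags of the high-coverage region and 5.401, 3.98 and 4.01 for the others. It was 4.74, 2.84 and 3.15 for contacts inside the window, 6.34, 4.52 and 5.17 for those outside it within 2 Mb, 5.88, 4.89 and 4.22 for cis contacts at 2 Mb or more, and 5.25, 4.03 and 3.95 in trans. Inside contacts therefore had the fewest copies in every library. Only 1 di-tag with identical ends was shared between libraries, by Samples 4 and 5.

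Retaining duplicates changed the tests of the window far more than its contact classes. Of cis pairs with at least 2 di-tags, 75 of 120, 44 of 78 and 43 of 74 passed, where 53.3%, 51.1% and 51.9% passed genome-wide, compared with 0 in each library without duplicates. Of these calls, 61, 37 and 36 rested on copies of a single distinct di-tag, or 81.3%, 84.1% and 83.7%. In trans, 380 of 446, 294 of 311 and 329 of 342 pairs passed, where 91.5%, 92.4% and 92.4% passed genome-wide. The share of cis di-tags at 2 Mb or more was 36.9%, 17.5% and 12.1% with duplicates and 35.2%, 15.0% and 11.7% without. Outside the window within 2 Mb it was 14.2%, 15.0% and 14.1% with and 12.6%, 13.7% and 11.1% without. Inside the window it was 2.79%, 4.17% and 5.65% with and 3.16%, 6.10% and 7.29% without. In trans it was 46.1%, 63.3% and 68.1% with and 49.1%, 65.3% and 69.9% without.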

How the data were processed

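The deposited files were lists of valid CHi-C di-tags, 1 line for each, made by the authors with HiCUP. Per the labels, the tools included Bowtie 1.1.0 and the build was mm9. For each of the 3 libraries 1 list with duplicates retained and 1 with duplicates removed was used. The deposited values are other than counts or scores: positions, chromosomes and strands of both ends, from which all counts were made here. The window is that of the rule, and the members and the comparisons were chosen with earlier results of these data known.

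Ends were counted in regions of 10 kb with Python 3.11.15, numpy 2.4.6, scipy 1.17.1 and pandas 2.3.3. The expected number of cis di-tags of a pair, from 20 kb to 2 Mb, was the product of both coverages and a factor for distance and for how many of the 2 regions were high in coverage (top 10% in each of the other libraries), fitted genome-wide in each library. Pairs with at least 2 di-tags were tested with a one-sided Poisson test, those in trans with a one-sided binomial test, and p-values were adjusted by Benjamini-Hochberg over all possible pairs. The cis test was tested on simulated data. Named regions and pairs followed a written rule: regions among the 10% most covered in all libraries, cis pairs called in all libraries, trans pairs called in 2 libraries or else those with the most di-tags, and the 8 outside regions with the most di-tags. Windows of equal coverage were within 10% of the window in every library. The cut sites, the comparisons with regions alike in Samples 4 and 5, and the count of nearly identical di-tags were added after the data were seen. Alternatives covered region size, distance limit, thresholds, coverage, duplicates, window position and leaving out each library. Depth was 9376907, 8596799 and 8821161 di-tags with duplicates removed.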

Additional observations from a re-analysis of the deposited data

How the results depend on the processing

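No paired analysis was possible because the 3 libraries form 1 group. The excess of cis di-tags at 2 Mb or more over windows of equal coverage was positive in every library under every alternative, its mean between 3.67 and 5.79 percentage points, and the shortfall in trans was likewise negative throughout. The mean difference inside the window, 0.50 percentage points, lay between -0.12 (without Sample 5) and 0.884 (without Sample 3). Without each library in turn, the mean share of di-tags in the window was 0.0116% to 0.0140%, and with duplicates retained it was 0.00999%. Called cis pairs of the window, 0 in each library, averaged 0.333 with 20 kb regions, where 1 of 23 pairs was called in Sample 5 (0.365% genome-wide, 17 di-tags against 4.16 expected). This call joined the 20 kb holding the high-coverage region to the next 20 kb, and its di-tags are the 9 and 8 of the 10 kb neighbours at 122660000 and 122670000. The average was 8.67 on coverage alone without distance, and 54 with duplicates retained. The other alternatives, leaving out each library and counting nearly identical di-tags once among them, gave 0. Several of these could give nothing else. As no library had a call, leaving any of them out could only return 0. An adjusted p under 0.01 and a minimum of 3 di-tags are stricter cuts of the same test, so neither could add a call. No cis pair met the naming rule, so its alternatives had no value to compare. Called trans pairs, on average 1.33, became 0.333 with nearly identical di-tags counted once and 334.3 with duplicates retained. They became 0 with at least 3 di-tags, and 0 to 2 without each library, with 0 on leaving out Sample 5. With duplicates removed no trans pair of the window held more than 2 di-tags, so at least 3 left nothing to test. Samples 3 and 4 had 0 trans pairs to test, so the values without each library were fixed as well. In the high-coverage region, the ratio of Sample 3 to the mean of Samples 4 and 5 was 2.54 on raw counts. It was 2.36 per di-tag of the library, 2.21 on trans ends, 2.78 for the strong fragment and 3.36 with duplicates retained. The cause of these changes was not tested. Depth limits all pair counts: with at most 8 di-tags for a tested pair of 10 kb regions with duplicates removed, single contacts of these genes cannot be ordered, and the assignment of fragments to genes would need an mm9 annotation.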
